A study of Mus musculus with 9 samples.

Results

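The opioid and cannabinoid receptor genes Oprm1, Oprd1, Oprk1, Oprl1, Cnr1 and Cnr2 were examined in lumbar dorsal root ganglia of adult mice. They are 6 of the 55536 genes counted, and were picked by symbol, with earlier results of these data known. Each symbol matched 1 Ensembl gene in the GENCODE annotation of mm10. The ganglia hold the cell bodies of sensory neurons with their glia. Messenger RNA was sequenced in 5 libraries of a Prdm12 inducible conditional knock-out (icKO) and 4 control libraries labelled wild type. All mice were adult C57Bl6, and their ganglia were taken 1 month after tamoxifen, which switches on the inducible recombination. Prdm12 encodes a zinc finger regulator of nociceptors, the neurons that sense pain. The sources used here do not give the driver of the recombination, the deleted exon, what the controls carry or whether animals were pooled. Nor do they say that each library came from its own animal, so the p-values measure only the spread between libraries, which may be technical.

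Opioid receptors are G protein-coupled receptors that act through inhibitory Gi/o proteins. When enkephalin, dynorphin or a drug such as morphine binds, the Gi/o alpha subunit inhibits adenylyl cyclase, and the beta and gamma subunits close calcium channels at the presynaptic terminal and open potassium channels. Sensory neurons carry these receptors on their endings and on their terminals in the spinal cord, where they reduce transmitter release. Oprm1 encodes the mu receptor, the main target of morphine, Oprd1 the delta receptor, Oprk1 the kappa receptor and Oprl1 the nociceptin receptor. Cnr1 encodes the CB1 receptor of neurons and Cnr2 the CB2 receptor, which is best known from immune cells. Both bind the endocannabinoid lipids and also act through Gi/o.

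Promoter sequences of Oprd1 and Oprl1 are shown because these were the receptors with the smallest p-values in each direction. The lines give the 250 bases upstream of the first listed start, 5′ to 3′ along the gene, from RefSeq on GRCm38.p6, with GC boxes (GGGCGG on either strand) in capitals. Oprd1 is on the minus strand at chr4:132144487-132144736, and Oprl1 on the plus strand at chr2:181714766-181715015.
Oprd1: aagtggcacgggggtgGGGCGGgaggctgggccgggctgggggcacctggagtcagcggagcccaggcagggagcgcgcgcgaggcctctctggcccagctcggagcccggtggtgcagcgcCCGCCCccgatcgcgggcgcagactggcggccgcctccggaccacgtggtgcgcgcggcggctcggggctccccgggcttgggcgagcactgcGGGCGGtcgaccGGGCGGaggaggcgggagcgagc
Oprl1: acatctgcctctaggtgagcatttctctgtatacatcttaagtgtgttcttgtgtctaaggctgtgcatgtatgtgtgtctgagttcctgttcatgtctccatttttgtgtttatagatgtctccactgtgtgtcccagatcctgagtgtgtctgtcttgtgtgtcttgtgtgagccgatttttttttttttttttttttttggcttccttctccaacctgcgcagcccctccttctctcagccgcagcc
The Oprd1 window held 34 CpG dinucleotides and 4 GC boxes. The Oprl1 window held 3 CpG dinucleotides and 0 GC boxes. Over 32851 promoter windows of the same length the median was 6 CpG dinucleotides, and 32.7% held a GC box. Sequences were found for 5 of the 6 receptors. The first window of Cnr1 resembled Oprd1 with 36 CpG dinucleotides and 5 GC boxes. The windows of Cnr1 starts 2 and 3 held 28 and 5 CpG dinucleotides and 0 GC boxes. The 3 Oprm1 windows held 0 to 4 CpG dinucleotides and the 2 Cnr2 windows 3 each, all without a GC box.

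Library totals were 23878297 to 29481589 counts in icKO and 19607740 to 27970469 counts in control. Prdm12 was at 24.0 ± 1.41 CPM in icKO (SD, n = 5) and 134 ± 20.0 CPM in control (SD, n = 4), and its log2 fold change, icKO minus control, was -2.48 (edgeR adjusted p = 2.51e-08, SE 0.09). CPM stands for counts per 1e+06 of a library's total, adjusted with TMM factors. All 8 sensory neuron markers passed the count filter and 0 were called, with a summed level of 7642 to 9340 CPM in icKO and 7946 to 9477 CPM in control. The 6 macrophage markers summed to 64.5 to 94.5 CPM in icKO and 50.2 to 110 CPM in control, and the 6 lymphocyte markers to 2.05 to 3.50 CPM in icKO and 1.80 to 2.73 CPM in control. The 6 spinal cord markers, of which only Aqp4 passed the count filter, summed to 12.1 to 16.9 CPM in icKO. In control they summed to 11.04 to 14.6 CPM in replicates 1 to 3 and 35.4 CPM in replicate 4. Most of the sum was Aqp4 in both groups, at 11.9 to 16.7 CPM in icKO and 10.9 to 34.2 CPM in control. Summed Y-linked levels were 98.1 to 165 CPM in icKO 1 and 2 and control 1 and 3, and 0.104 to 3.58 CPM in the other libraries, so both groups mixed high and low libraries.

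None of the opioid and cannabinoid receptor genes passed the test between icKO and control. Of the 6, 5 passed the filter on low counts and entered edgeR's quasi-likelihood test, and 0 of these were called at a Benjamini-Hochberg adjusted p under 0.05 over all 17258 tested genes, where the background was 0.852% (0.475% higher and 0.377% lower). Without adjustment 1 receptor, Oprd1, was lower at p under 0.05 and 0 were higher, and the background was 11.1% of all tested genes (4.85% higher and 6.26% lower). DESeq2 likewise called 0 receptors, against a background of 2.56%. For none of the 5 did the CPM of the groups separate without overlap, against 4.5% of all tested genes. The log2 fold changes, icKO minus control, ran from -0.34 to 0.20 with a median of 0.11, while those of all tested genes had a median of -0.00076 and quartiles of -0.09 and 0.09. In whole ganglia, fewer cells of a type and less RNA per cell cannot be told apart.

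Oprd1, the delta receptor gene, had the smallest p of the receptors. It was at 12.3, 15.1, 16.7, 10.7 and 17.6 CPM in icKO replicates 1 to 5 and at 16.9, 16.8, 19.4 and 20.6 CPM in control replicates 1 to 4. The icKO libraries 1, 2, 3 and 4 lay below every control library, and icKO 5 lay within the control range. The means were 14.5 ± 2.90 CPM in icKO (SD, n = 5) and 18.4 ± 1.88 CPM in control (SD, n = 4). The log2 fold change was -0.34 (SE 0.13, 95% interval -0.64 to -0.05), and its edgeR adjusted p was 0.347, while the unadjusted p of the same model was 0.025. Its counts ranged over 261 to 479 in icKO libraries and 399 to 532 in control libraries. Leaving out single libraries moved the value from -0.41 (without icKO 5) to -0.25 (without icKO 4), and it was -0.40 within the libraries of high Y-linked counts (2 icKO, 2 control) and -0.31 within those of low counts (3 icKO, 2 control). Oprd1 (ENSMUSG00000050511) lies on the minus strand of chromosome 4 from 132110726 to 132144486 and has 1 annotated transcript of 3 exons.

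Oprm1, the mu receptor gene, was at 11.6, 11.3, 13.9, 15.6 and 11.6 CPM in icKO replicates 1 to 5 and at 14.5, 10.8, 11.2 and 21.1 CPM in control replicates 1 to 4. The groups overlapped, and control 4 stood above every other library. Means were 12.8 ± 1.89 CPM in icKO (SD, n = 5) and 14.4 ± 4.78 CPM in control (SD, n = 4). The log2 fold change was -0.16 (SE 0.18, 95% interval -0.55 to 0.23, edgeR adjusted p = 0.818), and it turned to 0.07 without control 4. Control 4 was also the library with the highest spinal cord marker sum, at 35.4 CPM, of which Aqp4 made up 34.2 CPM. Slc6a5 had 12 counts in control 4, and Olig2, Mog, Slc32a1 and Chat had at most 5 in any library. The part of spinal cord tissue in the Oprm1 level was not tested. Oprm1 (ENSMUSG00000000766) spans chromosome 10 from 6758506 to 7038198 on the plus strand, with 31 annotated transcripts. It shares 96 bases of exon with Ipcef1 on the other strand. Ipcef1 had 27 to 39 counts in icKO libraries and 23 to 58 in control libraries, and Oprm1 had 291 to 398 in icKO libraries and 265 to 410 in control libraries.

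Oprl1 and Oprk1 had positive differences. Oprl1, the nociceptin receptor gene, was at 33.6, 34.8, 32.5, 30.5 and 25.5 CPM in icKO replicates 1 to 5 and at 26.9, 28.4, 30.9 and 22.8 CPM in control replicates 1 to 4. The icKO libraries 1, 2 and 3 lay above every control library, and icKO 4 and 5 lay within the control range. Oprl1 averaged 31.4 ± 3.63 CPM in icKO (SD, n = 5) and 27.3 ± 3.40 CPM in control (SD, n = 4). Its log2 fold change was 0.20 (SE 0.10, 95% interval -0.02 to 0.42, edgeR adjusted p = 0.51). Oprk1, the kappa receptor gene, was at 5.52, 4.92, 5.22, 6.54 and 3.75 CPM in icKO replicates 1 to 5 and at 4.80, 4.08, 4.12 and 5.05 CPM in control replicates 1 to 4. The icKO libraries held both the highest value, in replicate 4, and the lowest, in replicate 5. Oprk1 averaged 5.19 ± 1.01 CPM in icKO (SD, n = 5) and 4.51 ± 0.487 CPM in control (SD, n = 4). Its log2 fold change was 0.20 (SE 0.15, 95% interval -0.13 to 0.53, adjusted p = 0.704), resting on 95 to 164 counts in icKO libraries and 98 to 131 in control libraries. Oprl1 (ENSMUSG00000027584) lies on chromosome 2 from 181715016 to 181720985 and Oprk1 (ENSMUSG00000025905) on chromosome 1 from 5588466 to 5606131, both on the plus strand.

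Cnr1, the CB1 receptor gene, was at 55.8, 62.9, 53.4, 64.1 and 54.7 CPM in icKO replicates 1 to 5 and at 55.4, 44.3, 53.2 and 62.2 CPM in control replicates 1 to 4. The groups overlapped, with the lowest value in control 2. Cnr1 averaged 58.2 ± 4.95 CPM in icKO (SD, n = 5) and 53.8 ± 7.36 CPM in control (SD, n = 4). The log2 fold change was 0.11 (SE 0.09, 95% interval -0.08 to 0.31, edgeR adjusted p = 0.722), so a change beyond 1.24-fold upward lay outside the interval. Cnr2, the CB2 receptor gene, had 11, 8, 4, 4 and 8 counts in icKO replicates 1 to 5 and 2, 5, 7 and 4 counts in control replicates 1 to 4. It did not pass the count filter. Its log2 CPM differed by 0.37, icKO minus control, with p = 0.278 by a two-sided exact permutation test whose smallest possible p is 0.00794. With 2 to 11 counts per library, only a large difference in Cnr2 could have been detected. Cnr1 (ENSMUSG00000044288) lies on chromosome 4 from 33924593 to 33948831 and Cnr2 (ENSMUSG00000062585) on the same chromosome from 135895394 to 135920207, both on the plus strand.

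**Figure D1:**
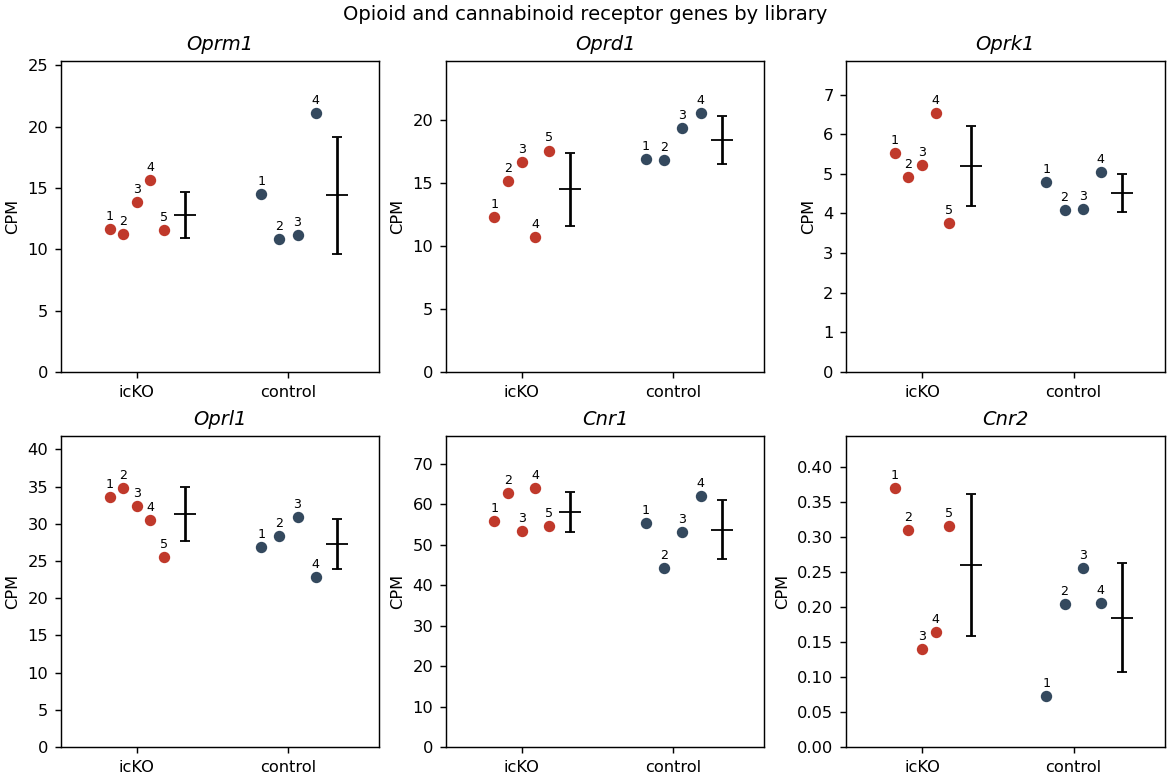
CPM of the 6 receptor genes in each library, with icKO libraries in red and control libraries in blue-grey, numbered by replicate, and bars giving the mean and SD of each group. The groups overlap for every receptor, and control 4 holds the highest Oprm1 value at 21.1 CPM.

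Levels were compared between the receptors per kilobase of merged exon. In icKO ganglia Cnr1 averaged 9.03 ± 0.768 CPM per kilobase, Oprl1 8.36 ± 0.966, Oprd1 3.60 ± 0.722, Oprm1 1.59 ± 0.235, Oprk1 0.567 ± 0.110 and Cnr2 0.0653 ± 0.0256 (SD, n = 5). In control ganglia the means per kilobase were 8.34 ± 1.14 for Cnr1, 7.27 ± 0.906 for Oprl1, 4.58 ± 0.468 for Oprd1, 1.79 ± 0.595 for Oprm1, 0.493 ± 0.0532 for Oprk1 and 0.0464 ± 0.0196 for Cnr2 (SD, n = 4). Cnr1 and Oprl1 were neighbours whose ranges overlapped, Cnr1 being above Oprl1 in 6 of 9 libraries, while every other neighbour in this order was separate in all 9 libraries. The order depends on the length used, because Oprm1, Oprk1 and Oprl1 have transcripts much shorter than their merged exons. Per kilobase of the median coding transcript, the icKO means were 15.1 for Oprl1, 10.1 for Cnr1, 8.53 for Oprm1, 3.60 for Oprd1, 2.09 for Oprk1 and 0.0682 for Cnr2. The control means on that scale were 13.1 for Oprl1, 9.60 for Oprm1, 9.30 for Cnr1, 4.58 for Oprd1, 1.82 for Oprk1 and 0.0484 for Cnr2. Under both lengths Oprk1 and Cnr2 had the lowest levels of the 6.

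The balance between receptors was compared as the log2 ratio of counts within each library, which does not depend on how libraries are scaled. All 10 pairs of the 5 tested receptors were put through a two-sided exact permutation test, and 0 passed an adjusted p of 0.05 over the pairs. The smallest p belonged to Oprd1 over Cnr1. That ratio was -2.18, -2.05, -1.68, -2.58 and -1.64 in icKO replicates 1 to 5 and -1.71, -1.40, -1.45 and -1.60 in control replicates 1 to 4. The difference was -0.48, with an exact permutation p of 0.0556 and an adjusted p of 0.278. The Oprd1 over Oprl1 ratio averaged -1.13 ± 0.396 in icKO (SD, n = 5) and -0.56 ± 0.279 in control (SD, n = 4), with an exact permutation p of 0.0635 and the same adjusted p of 0.278. For Oprm1 over Oprd1 the ratio averaged -0.17 ± 0.440 in icKO (SD, n = 5) and -0.40 ± 0.382 in control (SD, n = 4), with an exact permutation p of 0.444.

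**Figure D2:**
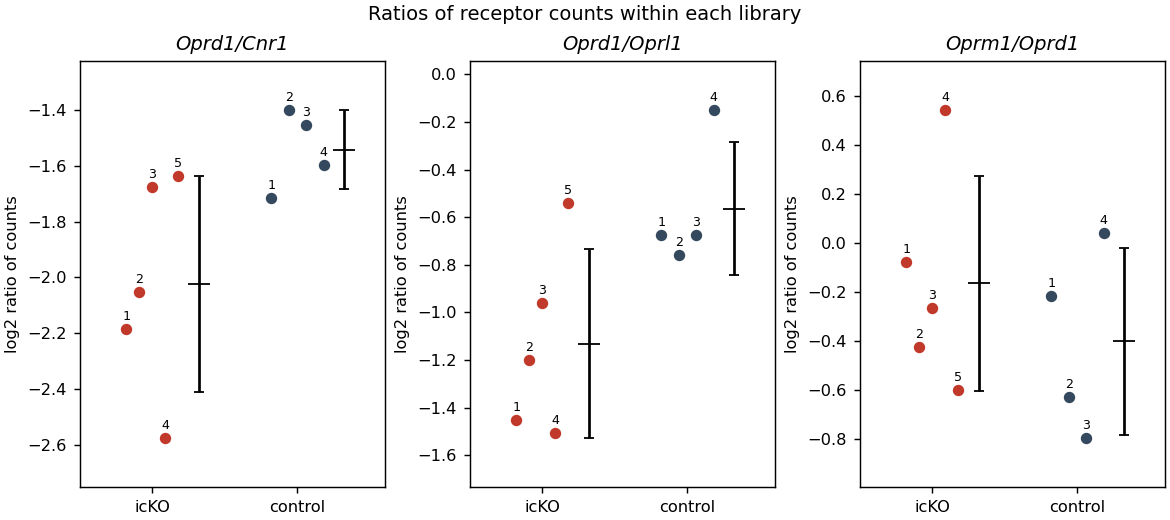
Log2 ratios of counts of 3 receptor pairs in each library, icKO in red and control in blue-grey, numbered by replicate, with bars for the mean and SD. For Oprd1 over Cnr1 the icKO libraries run from -2.58 to -1.64 and the control libraries from -1.71 to -1.40, so the groups overlap.

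The remaining pathway was described with 14 lists of ligands, enzymes and signalling partners, in which 104 of 111 listed genes were tested. The edgeR test called 1 higher and 2 lower, which is 2.88% of them against the background of 0.852%. The riser was Npy2r and the fallers were Gng2 and Sstr1. Before adjustment 9 had p under 0.05 in the higher direction and 14 in the lower, or 22.1% against the background of 11.1%. The CPM of the groups did not overlap for 9 of the 104, or 8.65%, against 4.5% of all tested genes. The lists were chosen with results of these data known, so these shares describe the lists and support nothing further.

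**Figure D3:**
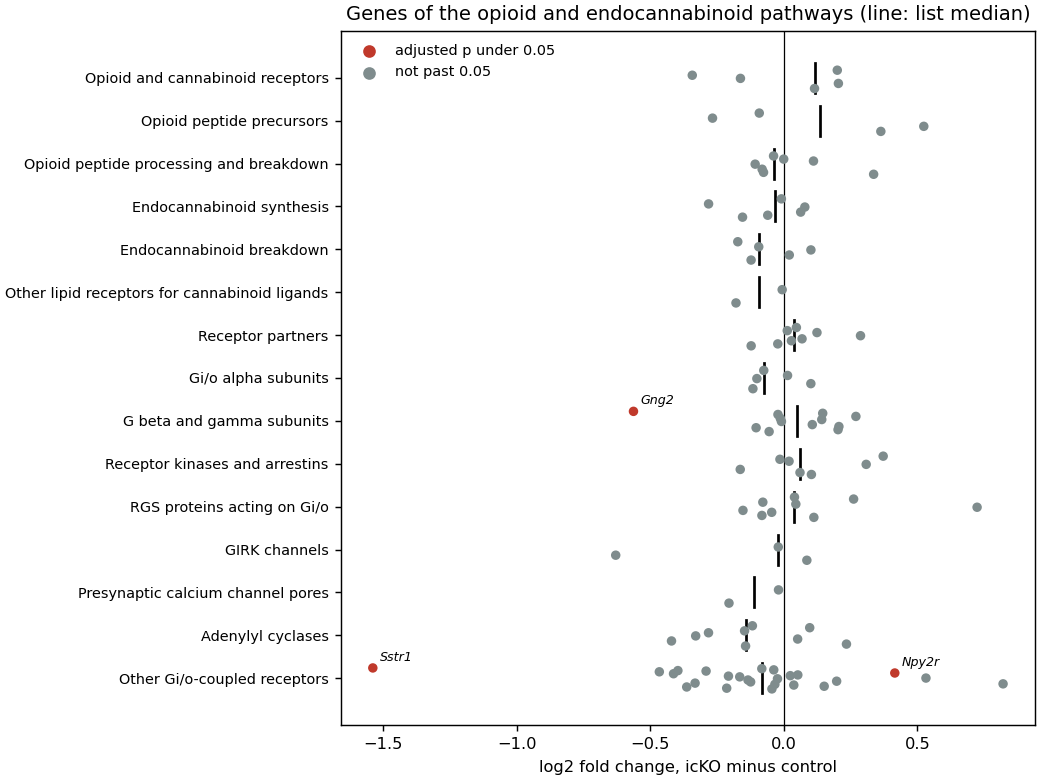
Log2 fold changes, icKO minus control, of the tested genes in the receptor list and 14 pathway lists, with 1 point per gene, called genes in red and a black line at each list median. Gng2 at -0.56, Sstr1 at -1.54 and Npy2r at 0.42 are the called genes.

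None of the 4 opioid peptide precursor genes passed edgeR's test, and 0 had an unadjusted p under 0.05. Penk, the enkephalin precursor, was at 8.07, 3.91, 5.57, 5.22 and 4.50 CPM in icKO replicates 1 to 5 and at 3.89, 5.72, 9.22 and 7.57 CPM in control replicates 1 to 4. Its log2 fold change was -0.27 (SE 0.25, adjusted p = 0.776). The range within each group exceeded the difference between them. Pnoc, the nociceptin precursor, gave an adjusted p of 0.524 for a log2 difference of 0.52 (SE 0.27), at 0.781 ± 0.126 CPM in icKO (SD, n = 5) and 0.535 ± 0.217 CPM in control (SD, n = 4). Pdyn, the dynorphin precursor, was below 1 CPM in every library. Of 7 genes that process or degrade these peptides, 0 passed. Cpe, a carboxypeptidase that trims peptide hormones, was at 897 ± 28.9 CPM in icKO (SD, n = 5) and 831 ± 9.57 CPM in control (SD, n = 4), 0.11 higher on the log2 scale (adjusted p = 0.398, SE 0.05). The groups did not overlap for Cpe, as for 4.5% of all tested genes in either direction. Mme, the enkephalin-degrading neprilysin, was at -0.11 (SE 0.07, adjusted p = 0.619) and the peptidase gene Dpp3 at -0.08 (SE 0.06, adjusted p = 0.725).

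Endocannabinoid enzymes did not pass either. Of 6 tested synthesis genes 0 were called and 2 were lower at an unadjusted p under 0.05, against 6.26% of all tested genes. These were Dagla, which makes 2-arachidonoylglycerol, at -0.28 (SE 0.11, edgeR adjusted p = 0.365), and Abhd4, of an anandamide route, at -0.15 (SE 0.07, adjusted p = 0.392). Napepld, a further anandamide enzyme, was at 0.08 (SE 0.08, adjusted p = 0.796). Of 5 tested breakdown genes 0 had an unadjusted p under 0.05. They included Mgll, the monoacylglycerol lipase, at -0.17 (SE 0.14, adjusted p = 0.726), Abhd12 at -0.12 (SE 0.06, adjusted p = 0.51), Naaa at 0.10 (SE 0.06, adjusted p = 0.563) and Faah, which hydrolyses anandamide, at 0.02 (SE 0.10, adjusted p = 0.975). Of 2 tested further receptors for cannabinoid ligands, Gpr119 was at -0.18 and Trpv1 at -0.01, a value whose sign changed with the scaling, and 0 were called. Of 8 receptor partners 0 passed, with Gprasp1, a sorting protein for G protein-coupled receptors, at 0.12 (SE 0.05, adjusted p = 0.401), the CB1-interacting Cnrip1 at -0.12 (SE 0.08, adjusted p = 0.623) and the receptor chaperone Rtp4 at 0.29 (SE 0.19, adjusted p = 0.654). Gprasp1 separated the groups without overlap, as did 4.5% of all tested genes in either direction.

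Gng2 was the only gene called among the listed G protein subunits. It encodes a gamma subunit, which with a beta subunit forms the dimer released from an activated G protein. Gng2 was at 232, 233, 215, 226 and 218 CPM in icKO replicates 1 to 5 and at 344, 328, 291 and 367 CPM in control replicates 1 to 4. Every icKO library lay below every control library, and 4.5% of all tested genes separated the groups in this way in either direction. Its log2 fold change was -0.56 (SE 0.07, 95% interval -0.71 to -0.42) and its edgeR adjusted p was 0.0015, which stayed between 0.00104 and 0.00751 with single libraries left out. Gng2 (ENSMUSG00000043004) lies on the minus strand of chromosome 14 from 19872559 to 19977627. It shares 897 bases of exon with the long noncoding RNA gene Gm48283 on the other strand, and Gm48283 had 0 to 1 counts in icKO libraries and 0 in each control library. The strand setting of the counting was not stated. The other 11 tested beta and gamma subunit genes did not pass, and the list median was 0.05. Before adjustment 1 of the 11 was higher at an edgeR p under 0.05, against 4.85% of all tested genes.

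The Gi/o alpha subunits that couple to the receptors did not pass in any of 5 cases. The log2 fold changes were 0.10 for Gnai3 (SE 0.05, edgeR adjusted p = 0.494), -0.12 for Gnai1 (SE 0.06, adjusted p = 0.531) and -0.10 for Gnaz (SE 0.09, adjusted p = 0.751). Among kinases and arrestins that desensitise the receptors 0 of 7 passed. Grk3 was at 0.37 (SE 0.11, adjusted p = 0.176), Grk4 at 0.31 (SE 0.16, adjusted p = 0.523) and Grk2 at -0.16 (SE 0.09, adjusted p = 0.55). Without a count filter edgeR called Grk3 (adjusted p = 0.0227). Of 9 regulators of G protein signalling (RGS), which shorten Gi/o signals, 0 passed. Of the 9, 2 were higher at an unadjusted p under 0.05, against 4.85% of all tested genes. These were Rgs20 at 0.72 (SE 0.19, adjusted p = 0.128), with 4.58 ± 0.898 CPM in icKO (SD, n = 5) and 2.76 ± 0.757 CPM in control (SD, n = 4), and Rgs19 at 0.26 (SE 0.09, adjusted p = 0.291). Rgs20 was called by DESeq2 (adjusted p = 0.0244) and by edgeR without a count filter (0.0307) or with a term for Y-linked counts (0.0392). Rgs7 was at -0.08 (SE 0.06, adjusted p = 0.683).

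Effectors of the receptors gave 0 calls in the main edgeR fit. Of 9 adenylyl cyclase genes, 3 had lower and 1 had higher values with p under 0.05 before adjustment, against the background of 11.1%, and the list median was -0.14. DESeq2 called Adcy5 (adjusted p = 0.0176) and Adcy3 (adjusted p = 0.0208). Both were also called by edgeR without a count filter (adjusted p = 0.0217 for Adcy5 and 0.0388 for Adcy3). Adcy5 was at 61.5, 62.9, 73.1, 59.5 and 68.0 CPM in icKO replicates 1 to 5 and at 84.0, 69.8, 80.2 and 93.1 CPM in control replicates 1 to 4. The icKO library 3 lay above the lowest control library, replicate 2, and the other icKO libraries lay below all control libraries. Its log2 fold change was -0.33 (SE 0.08, adjusted p = 0.101), that of Adcy3 -0.42 (SE 0.11, adjusted p = 0.11) and that of Adcy2 -0.28 (SE 0.08, adjusted p = 0.155). Without control 2 all 3 were called, with adjusted p-values of 0.0338, 0.0435 and 0.0448. Of 3 tested genes of GIRK channels, the potassium channels opened by G proteins, Kcnj9 was at -0.63 (SE 0.16, adjusted p = 0.102), at 1.73 ± 0.283 CPM in icKO (SD, n = 5) and 2.67 ± 0.275 CPM in control (SD, n = 4). The groups did not overlap for Kcnj9, against 4.5% of all tested genes that separated in either direction. Kcnj3 was at 0.09 (SE 0.06, adjusted p = 0.681) and Kcnj6 at -0.02 (SE 0.34). The pore genes of presynaptic calcium channels, Cacna1a and Cacna1b, were at -0.21 (SE 0.07, adjusted p = 0.285) and -0.02 (SE 0.09, adjusted p = 0.969).

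Other Gi/o-coupled receptors held both remaining calls. Among 25 tested genes 23 did not pass, 1 rose and 1 fell. Before adjustment 8 of them, or 32%, had p under 0.05, against the background of 11.1%, and the median log2 fold change was -0.08. Npy2r, a neuropeptide Y receptor gene, was at 54.2, 48.7, 53.4, 55.9 and 54.1 CPM in icKO replicates 1 to 5 and at 46.1, 38.7, 35.8 and 39.1 CPM in control replicates 1 to 4. All icKO libraries were above all control libraries, and the log2 fold change was 0.42 (edgeR adjusted p = 0.0178, SE 0.07). Sstr1, a somatostatin receptor gene, was at 0.706, 1.20, 0.975, 0.576 and 1.07 CPM in icKO replicates 1 to 5 and at 1.65, 2.08, 4.41 and 2.37 CPM in control replicates 1 to 4. All icKO libraries were below all control libraries, and the log2 fold change was -1.54 (edgeR adjusted p = 0.0318, SE 0.30). The background of such separation, in either direction, was 4.5% of all tested genes. Leaving out icKO 1 (adjusted p = 0.0578) or control 3 (adjusted p = 0.0516) ended the Npy2r call. Leaving out icKO 1, 3, 4 or 5, or control 3 or 4, each ended the Sstr1 call, with adjusted p-values from 0.0568 to 0.103. Whether the opioid and cannabinoid receptors differed from these genes in their change was not tested.

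**Figure D4:**
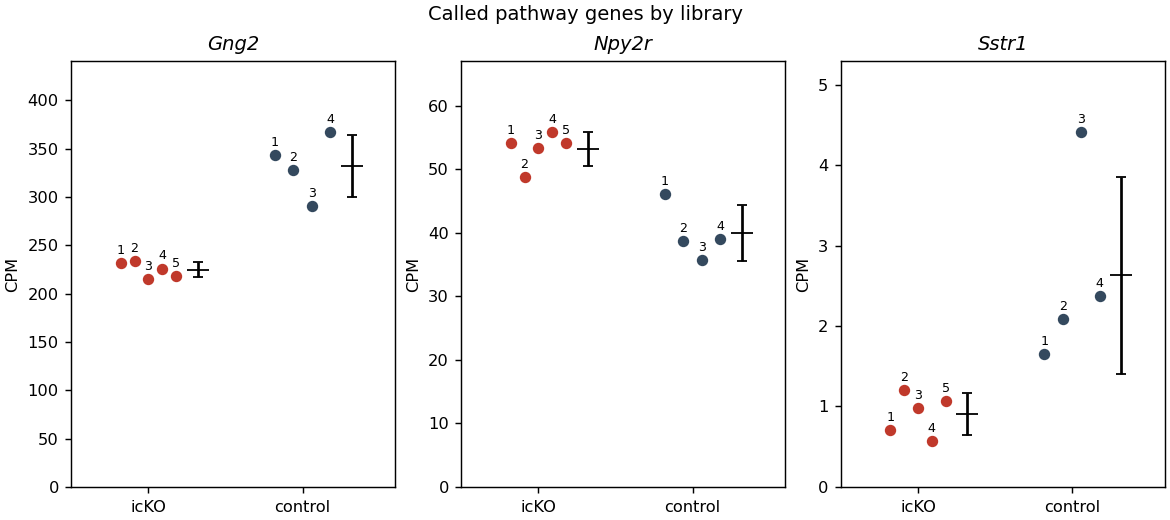
CPM of Gng2, Npy2r and Sstr1 in each library, icKO in red and control in blue-grey, numbered by replicate, with bars for the mean and SD. The icKO libraries run from 215 to 233 CPM for Gng2, below control libraries from 291 to 367 CPM, and do not overlap control for the other 2 genes.

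**Figure D5:**
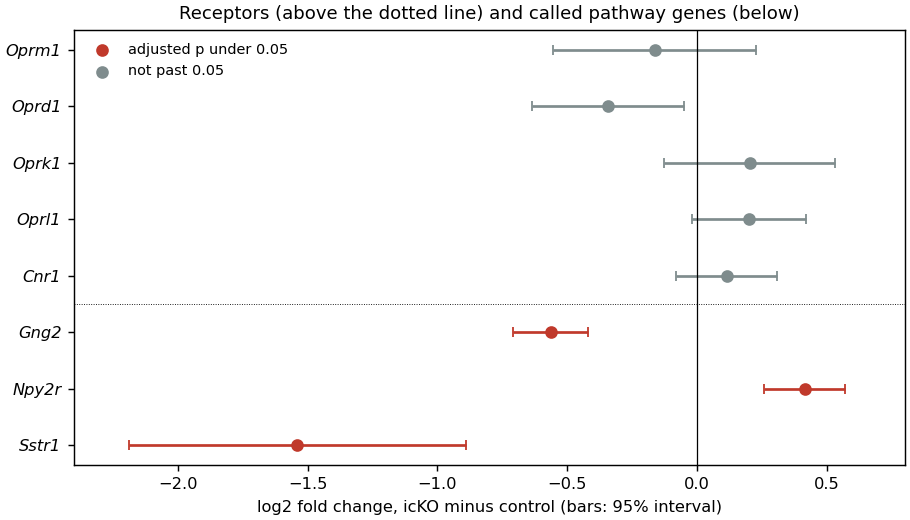
Log2 fold changes, icKO minus control, with 95% intervals from edgeR's quasi-likelihood fit, for the 5 tested receptors (above the dotted line, in grey) and the 3 called pathway genes (below it, in red). The Oprd1 interval ends at -0.05, and the intervals of the other 4 receptors include 0.

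Markers of neuron classes known to carry these receptors were measured beside them. Over all 17258 tested genes edgeR called 0.852%, and 4.5% separated the groups without overlap. Of 6 peptidergic nociceptor markers 2 fell, among them Gfra3, a receptor for the growth factor artemin, at -0.66 (SE 0.12, edgeR adjusted p = 0.0252). The Gfra3 call was lost when any single library other than icKO 2 or control 2 was left out. In the same list Tac1 was at 0.37 (SE 0.12, edgeR adjusted p = 0.25) and Adcyap1 at 0.06. Calca was at -0.05 and Trpv1 at -0.01, and none of these was called. The peptidergic sum was 2548 to 3457 CPM in icKO and 2771 to 3740 CPM in control. Of 6 markers of Mrgprd-type nociceptors 0 were called, with sums of 1583 to 1852 CPM in icKO and 1520 to 2031 CPM in control. Of 8 markers of A-fibre mechanoreceptors and proprioceptors 1 rose, the neurotrophin receptor gene Ntrk3, whose call was lost when icKO 1, 3, 4 or 5 or control 1 or 3 was left out and with scaling to sensory neuron markers (edgeR adjusted p = 0.0613). Of the same 8 markers 6 had negative log2 fold changes, none past the threshold, among them the neurofilament gene Nefh at -0.36 (SE 0.08, edgeR adjusted p = 0.0763) and the transcription factor gene Etv1 at -0.39 (SE 0.08, adjusted p = 0.0525), whose libraries did not overlap. The sums of the list were 3078 to 3602 CPM in icKO, below 3627 to 4103 CPM in control. Without Nefh, which averaged 2050 ± 214 CPM in icKO (SD, n = 5) and 2630 ± 256 CPM in control (SD, n = 4), they were 1270 to 1347 CPM in icKO and 1173 to 1335 CPM in control and overlapped. Of 5 C-fibre low-threshold mechanoreceptor markers 1 rose, Fam19a4, with sums of 512 to 572 CPM in icKO and 422 to 554 CPM in control. The Fam19a4 call was lost with scaling to sensory neuron markers (edgeR adjusted p = 0.0625). Satellite glia markers summed to 3966 to 4673 CPM in icKO and 3703 to 4904 CPM in control, and Schwann cell markers to 2980 to 3510 CPM in icKO and 2877 to 3488 CPM in control, with 0 of 6 called in each list. Gfra3, Tac1, Adcyap1, Calca, Ntrk3, Nefh, Etv1 and Fam19a4 were named after their values were seen. The part of these cell classes in the receptor levels was not tested.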

How the data were processed

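The authors deposited 1 table of unnormalized counts by Ensembl gene for each of 9 libraries. The build mm10 and the tools STAR 2.5.2a, featureCounts 1.5.0-p1 and bcl2fastq 2.20.0.422 are named per the submitters' processing notes. The sources used here do not state the annotation release, the strand setting or how multi-mapping reads were treated. All 55536 identifiers matched GENCODE M21. Genes were filtered with filterByExpr (minimum count 10, minimum total 15), scaled with TMM and tested with edgeR 4.0.16 (limma 3.58.1, R 4.3.3) by the quasi-likelihood test. Adjustment was over all 17258 tested genes at 0.05. Standard errors were derived from the F statistic and the log2 fold change. Alternatives, including DESeq2 1.42.0, are in the closing section. Replicate libraries differed beyond sampling noise (chi-square over its degrees of freedom at least 5.53), so each was kept as 1 sample. Named genes were all receptors, then all called genes of each list or those with the smallest p, with Faah added after its value was seen. The members and lists were chosen with earlier results of these data known. Some genes are not reported here. The standard errors come from a fit that estimates the spread between libraries, also for genes with low counts.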

Additional observations from a re-analysis of the deposited data

Results flagged for a closer look

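Among 108 groups of 4 or 5 values examined, for the receptors, the named genes and the marker sums, 6 held a library set apart from the others by the gap test of Dixon, and chance alone gives about 5%. Pdyn reached 0.824 CPM in control 4 and 0.255 to 0.286 CPM in the remaining control libraries, a gap of 0.946 of the range. The spinal cord marker sum was high in the same library, at 35.4 CPM against 11.04 to 14.6 CPM in the other control libraries, a gap of 0.855. Aqp4 alone was at 34.2 CPM in control 4. The peptidergic nociceptor marker sum had control 1 at 3740 CPM, above 2771 to 2913 CPM in the others, a gap of 0.854. Gprasp1 had icKO 1 at 424 CPM, above 390 to 398 CPM in the other icKO libraries, a gap of 0.763. Grk3 had icKO 1 at 36.9 CPM, below 41.4 to 43.2 CPM, a gap of 0.714. Rgs7 had control 3 at 83.1 CPM, below 94.0 to 96.2 CPM, a gap of 0.833. None of the 6 receptors was flagged.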

How the results depend on the processing

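None of the receptors was called under any of 9 other settings or with any of 9 libraries left out, and no receptor pair passed under its alternatives. Over the 9 settings the log2 fold changes ran from -0.42 to -0.33 for Oprd1, -0.19 to -0.09 for Oprm1, 0.20 to 0.30 for Oprk1, 0.20 to 0.28 for Oprl1 and 0.11 to 0.15 for Cnr1. With single libraries left out, Oprm1 ran from -0.28 to 0.074 (without control 4), Oprk1 from 0.11 to 0.31, Oprl1 from 0.13 to 0.28, Cnr1 from 0.03 to 0.19 and the Cnr2 difference from 0.12 to 0.51. Genes called over the whole table numbered 147 (82 higher, 65 lower), 425 with DESeq2 (196 and 229), 393 without a count filter (172 and 221) and 78 to 175 with single libraries left out (45 to 85 higher, 33 to 90 lower). Of the pathway lists, DESeq2 called 3 higher and 7 lower, no count filter 4 and 5, a Y-linked term 2 higher, and single libraries left out 0 to 2 higher and 1 to 6 lower. The cause of these shifts was not tested. The replicate block, over replicates 1 to 4, called 48 genes (28 higher, 20 lower), with 0 pathway genes higher and 1 lower, so that Npy2r (adjusted p = 0.0794) and Sstr1 (0.0699) were not called, nor were the markers Gfra3 (0.137), Ntrk3 (0.0912) and Fam19a4 (0.0655). Deviations of same-numbered libraries correlated at 0.10, -0.18, -0.04 and 0.17, and 0 of 8 libraries correlated best with their own number. With so few libraries this cannot decide whether the numbers pair them, and the labels do not say. Values near 0 changed sign. Trpv1 was at 0.010 with library size alone or the replicate block, at 0.013 with sensory neuron marker scaling, at 0.0046 without a count filter and at 0.0029 with a Y-linked term, and from -0.11 to 0.052 with single libraries left out. So did, with single libraries left out, Kcnj6 (-0.24 to 0.28), Cacna1b (-0.11 to 0.042) and the pairs Oprk1 over Oprl1 (-0.12 to 0.12) and Oprl1 over Cnr1 (-0.074 to 0.19). A Cnr2 count of 2 to 11 per library limits what could be detected.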

Other observations

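For each tested receptor, the genes whose log2 CPM varied most alike over the 9 libraries, after centring within each group, were taken from 13374 protein-coding genes. Adra2a, an alpha-2 adrenergic receptor gene, was closest to Oprm1 with a Pearson r of 0.98, followed by Gpr35 at 0.98 and Vcpip1 at 0.97. Nat8l (0.99), Cnnm1 (0.99) and Cxxc5 (0.98) were closest to Oprd1, and Cog5 (0.96), Ero1l (0.96) and Prokr2 (0.95) to Oprk1. Dpyd (0.97), Pacsin3 (0.95) and Pkd1l3 (0.94) were closest to Oprl1, and Ankfy1 (0.96), Srr (0.96) and Creb5 (0.94) to Cnr1. These are the highest of many coefficients over libraries that share depth and tissue composition, and are given as a description. Of the pathway lists, 7 genes were under the count filter. Gpr55, a receptor for lysophosphatidylinositol, had 7 to 9 counts in icKO libraries and 4 to 9 counts in control libraries. Ptgs2, the inducible cyclooxygenase gene, had 2 to 22 counts in icKO and 4 to 15 in control, and Gpr18 had 3 to 15 in icKO and 5 to 21 in control. Kcnj5, Galr3, Grm2 and Sstr5 had at most 5 counts in any library.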
